A study of Homo sapiens with 6 samples.

Results

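The 7 genes described here are WNT16, ARRDC3, IL1RAP, KLHL28, F3, YOD1 and FEM1C, taken from the 60675 genes of a bulk RNA sequencing table. They were chosen by their rise after knockdown of PIR with small interfering RNA (siPIR). The choice was among 4711 protein-coding genes whose log2 CPM averaged 3 or more (CPM being read counts scaled to a common library size). These also had an adjusted p under 0.05 and both siPIR libraries above both untreated ones, so all 4711 rose. By fold change the 7 genes hold ranks 1 to 7 among them. Their rise in siPIR cells is therefore given as a description, without a test. All samples were HCT116 cells, an established human colorectal carcinoma line, in 3 groups of 2 libraries. The untreated group was labelled wild type and untreated. The SP2509 group was labelled wild type and had 3 uM SP2509, a compound described as blocking LSD1, a histone demethylase, for 48 h. The siPIR group was labelled as a PIRIN knockdown with a time of 48 h. Its treatment label also names SP2509, so an effect of the knockdown and one of the compound cannot be told apart in it. No library was labelled as a control for transfection or for a non-targeting siRNA, and although the treatment protocol names DMSO, it is unstated whether cells labelled untreated were given it. The labels do not say whether the replicates came from separate cultures, so each p-value reflects only how far these samples differ from each other, and that spread may be technical.

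Pirin, the product of PIR, is a nuclear protein that binds iron and is thought to assist NF-kB on DNA. The 7 genes belong to no single pathway. WNT16 is a secreted WNT ligand, which acts through frizzled receptors, IL1RAP is the accessory chain that interleukin-1 family receptors need to signal, and F3 is tissue factor, the membrane protein that starts the extrinsic pathway of coagulation. The other 4 act on ubiquitin: ARRDC3 is an alpha-arrestin that brings NEDD4-type ubiquitin ligases to membrane proteins, KLHL28 is a BTB-Kelch protein of the class that serves as substrate adaptors of CUL3 ligases, FEM1C is a substrate receptor of CUL2 ligases that recognises C-terminal degrons, and YOD1 is an OTU deubiquitinase that works with the ATPase VCP.

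The libraries held 22622121 to 28816285 counts. PIR itself (ENSG00000087842, GRCh38 chrX:15384799-15493564, minus strand) had 519 and 462 counts in untreated cells, 37 and 39 in siPIR cells and 377 and 305 in SP2509 cells. Its level was 14.5 ± 0.18 CPM in untreated, 1.98 ± 0.069 CPM in siPIR and 13.3 ± 2.1 CPM in SP2509 cells (mean ± SD, n = 2, scaled by TMM, a trimmed mean of log ratios between libraries). PIR fell in siPIR cells (log2 fold change -2.87, SE 0.175, edgeR adjusted p = 3.39e-09; -2.003 with the GC and length trend described further down removed, edgeR adjusted p = 1.42e-09). PIR has 51.4% GC, and genes at 50 to 55% GC had a median change of -1.18 in these cells. Its difference of -0.12 (SE 0.125) in SP2509 cells did not pass the test (edgeR adjusted p = 0.406), though it was called lower under 2 other scalings: -0.36 by upper quartile (edgeR adjusted p = 0.0224) and -0.51 by total counts (edgeR adjusted p = 0.00248). The siPIR libraries stood apart in base composition: the count-weighted GC content of transcripts was 42.3% and 42.8% in them, against 48.3% to 48.7% in the other 4. Their replicates also differed most, with a chi-square per degree of freedom of 20.5 over genes against 4.20 in untreated and 7.14 in SP2509 cells. Across 16345 genes with a GC value the log2 fold change of siPIR against untreated had a Spearman correlation of -0.883 with transcript GC, against -0.0887 for SP2509 against untreated; this describes genes measured in shared libraries and is not a test. The summed level of 9 colorectal epithelial markers was 4515 and 4554 CPM by total counts in untreated, 1049 and 1126 CPM in siPIR and 4458 and 4501 CPM in SP2509 cells. Its members did not move alike in siPIR cells, given here in unscaled counts. KRT8, a keratin, went from 67104 and 58428 counts in untreated to 4443 and 5261. CDH1, the adhesion protein E-cadherin, had 4353 and 3508 in untreated and 3353 and 3417 in siPIR cells. EPCAM, another epithelial adhesion protein, went from 7343 and 6989 to 14512 and 12817. A lower TMM factor raises the scaled level, and the factors were 0.796 and 0.850 in siPIR against 1.26 and 1.27 in untreated libraries. No direction is therefore read from the CDH1 counts. Fibroblast markers summed to at most 32.6 CPM, leukocyte markers to at most 1.59 CPM and endothelial markers to at most 2.29 CPM in any library, and COL1A2, PTPRC, CD3D, CD3E, MS4A1, CDH5 and CLDN5 were at 0 in all 6. In bulk RNA, fewer cells of a kind and less RNA per cell cannot be told apart.

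All 7 genes have a RefSeq promoter window (GRCh38.p14, 250 bases before to 50 after a start site). Because the 7 genes were high in the same libraries, 3 windows are shown: those of F3 and YOD1, the only 2 of the 7 genes with an AP-1 match (TGANTCA), and that of WNT16, the only one with a match to the NF-kB consensus, shown because of the tie of Pirin to NF-kB. Capitals mark the AP-1 matches in F3 and YOD1, the TATA match (TATAAA, read on the reverse strand) in F3 and the NF-kB matches in WNT16. They lie at chr1:94541710-94542009 (minus strand), chr1:207051159-207051458 (minus strand) and chr7:121328750-121329049 (plus strand). The YOD1 and WNT16 windows lie inside the gene bodies given by GENCODE 29, so they belong to a RefSeq start site downstream of the outermost one.
F3: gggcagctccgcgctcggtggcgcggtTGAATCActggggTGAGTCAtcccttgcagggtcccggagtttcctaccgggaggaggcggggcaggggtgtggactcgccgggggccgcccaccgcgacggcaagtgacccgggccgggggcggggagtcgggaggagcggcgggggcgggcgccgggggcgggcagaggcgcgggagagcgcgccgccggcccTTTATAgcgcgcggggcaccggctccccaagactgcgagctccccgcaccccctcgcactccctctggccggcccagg
YOD1: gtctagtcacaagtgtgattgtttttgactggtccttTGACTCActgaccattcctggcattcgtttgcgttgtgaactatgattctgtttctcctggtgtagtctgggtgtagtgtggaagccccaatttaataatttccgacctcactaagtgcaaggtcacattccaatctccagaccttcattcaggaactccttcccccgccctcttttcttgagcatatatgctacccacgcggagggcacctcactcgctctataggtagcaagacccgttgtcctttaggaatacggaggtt
WNT16: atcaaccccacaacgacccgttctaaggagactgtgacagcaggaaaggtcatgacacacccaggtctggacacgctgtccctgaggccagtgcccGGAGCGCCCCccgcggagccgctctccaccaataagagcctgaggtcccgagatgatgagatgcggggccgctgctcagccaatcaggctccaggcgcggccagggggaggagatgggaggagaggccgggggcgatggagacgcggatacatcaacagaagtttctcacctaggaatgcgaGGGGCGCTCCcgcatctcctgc
Positions are counted from the start site. The AP-1 matches began at -223 and -210 in F3 and at -213 in YOD1, the TATA match at -28 in F3, and the NF-kB matches at -154 and 28 in WNT16. All motifs were searched on both strands. AP-1 was found in 7.71% of 35116 human promoter windows of the same length, the NF-kB consensus in 11.3% and TATA in 11.5%. The GC box GGGCGG was present in 5 of the 7 genes and 45.0% of all windows. The cyclic AMP response element TGACGTCA (1.85% of all windows) and the E-box CACGTG (7.26%) were in none of the 7. GC content of the windows shown was 77.3% in F3, 47.7% in YOD1 and 63.7% in WNT16, beside a median of 58.7% over all windows. The NF-kB matches in WNT16 read GGAGCGCCCC and GGGGCGCTCC, and the consensus letters behind them are not given here. With only 7 genes, nothing is read from these motif counts against the shares of all windows. A match describes letters in a window and does not show that a factor binds there.

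Of the 3 genes that act at the cell surface, WNT16 (ENSG00000002745, chr7:121325367-121341104, plus strand) had the largest change in siPIR cells. Its level was 31.7 and 28.7 CPM in untreated, 781 and 704 CPM in siPIR and 19.2 and 21.1 CPM in SP2509 cells. The siPIR libraries were far above the rest and the SP2509 libraries lay below the untreated ones. The mean was 24.6 times the untreated mean in siPIR cells (log2 fold change 4.62, SE 0.120). IL1RAP (ENSG00000196083, chr3:190514051-190659750, plus strand) had 6.63 and 5.62 CPM in untreated, 122 and 113 CPM in siPIR and 42.5 and 48.0 CPM in SP2509 cells. It was thus intermediate with the compound, and the log2 fold change in siPIR cells was 4.26 (SE 0.127), or 19.2-fold. F3 (ENSG00000117525, chr1:94529225-94541800, minus strand) had 21.3 and 20.6 CPM in untreated, 401 and 316 CPM in siPIR and 74.4 and 71.0 CPM in SP2509 cells. The 2 siPIR libraries of F3 differed by more than those of WNT16 or IL1RAP, and still lay far above the other 4 libraries, with a log2 fold change of 4.10 (SE 0.133), or 17.1-fold.

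The 4 ubiquitin-related genes were likewise highest in both siPIR libraries. ARRDC3 (ENSG00000113369, chr5:91368724-91383359, minus strand) had 74.7 and 66.0 CPM in untreated, 1640 and 1556 CPM in siPIR and 64.3 and 64.7 CPM in SP2509 cells. Its SP2509 libraries were just below the untreated ones, and its siPIR change was 4.51 on the log2 scale (SE 0.116), or 22.7-fold. KLHL28 (ENSG00000179454, chr14:44924319-45042322, minus strand) had 18.5 and 17.0 CPM in untreated, 363 and 262 CPM in siPIR and 28.6 and 26.9 CPM in SP2509 cells. KLHL28 had the widest spread of the 7 genes between siPIR libraries, 312 ± 71.4 CPM (mean ± SD, n = 2), with a log2 fold change of 4.14 (SE 0.154), or 17.6-fold. FEM1C (ENSG00000145780, chr5:115520908-115544894, minus strand) had 35.8 and 34.6 CPM in untreated, 553 and 536 CPM in siPIR and 108 and 121 CPM in SP2509 cells. It was the least raised of the 7 in siPIR cells, by 3.95 on the log2 scale (SE 0.11), or 15.5-fold. YOD1 (ENSG00000180667, chr1:207043849-207052980, minus strand) had 40.7 and 43.8 CPM in untreated, 727 and 650 CPM in siPIR and 151 and 153 CPM in SP2509 cells. The YOD1 change in siPIR cells was 4.03 (SE 0.113), or 16.3-fold. That siPIR libraries lay above untreated ones was a condition of the choice. For the 7 genes, SP2509 libraries overlapped neither the siPIR nor the untreated ones. The share of all genes without such overlap is not given here, so nothing is read from it. Among all 16503 genes tested, 39.3% were called higher and 46.9% lower in siPIR cells, and nothing is read from the 7 against that share because siPIR against untreated chose them. The higher genes were 45.6% of these calls with TMM and 33.9% with scaling by total counts, which moves the median of all genes from -0.28 to -0.89.

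**Figure D1:**
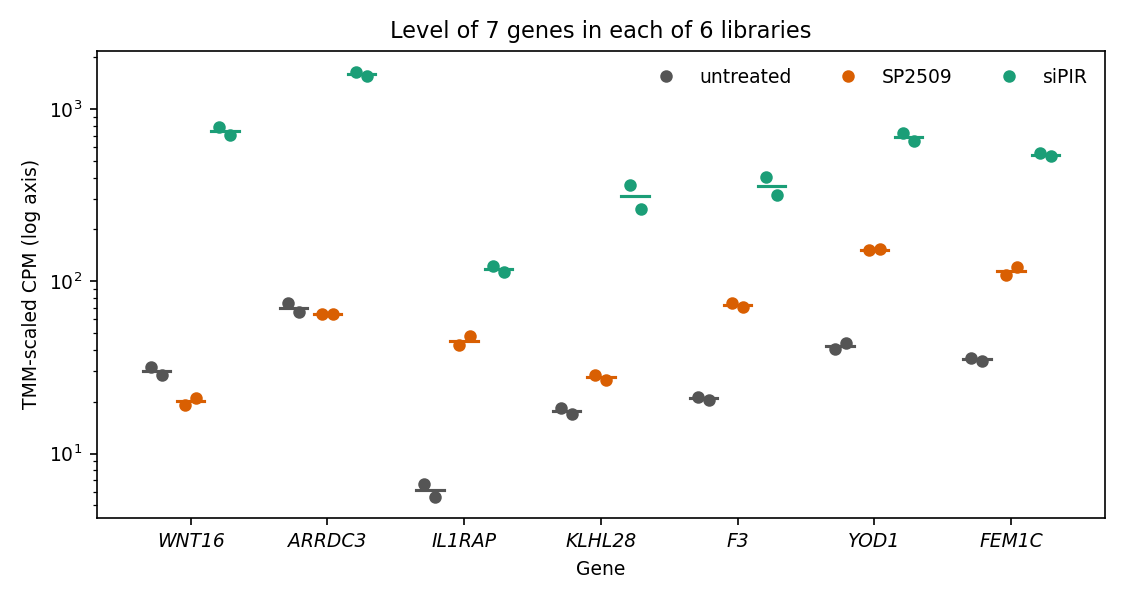
TMM-scaled CPM (log axis) of the 7 genes in each of the 6 libraries, coloured by group, with a short line at each group mean. For all 7 genes both siPIR libraries lie above the untreated and SP2509 libraries, and the SP2509 libraries lie above the untreated ones for IL1RAP, KLHL28, F3, YOD1 and FEM1C.

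Just outside the choice stood SLC2A3, a glucose transporter (log2 fold change 3.93 in siPIR cells), P4HA1, a collagen prolyl hydroxylase subunit (3.90), and SLCO1B3, an organic anion transporter (3.89), close to the 3.95 of FEM1C. With genes of low level and other biotypes included, the 7 ranked from 19 to 46 of 16503 by fold change.

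The rise was next read against genes of similar GC content. The median siPIR log2 fold change of genes tested fell from 2.34 at 30 to 35% transcript GC through 1.08 at 40 to 45% and 0.06 at 45 to 50% to -4.11 at 60 to 65%. All 7 genes lie on the AT-rich side, at 43.7% (F3), 41.7% (IL1RAP), 41.4% (WNT16), 38.4% (FEM1C), 37.6% (ARRDC3), 36.0% (YOD1) and 34.4% (KLHL28), beside a median of 48.5% over tested genes. WNT16 stood 3.36 above the median of 2788 tested genes within 2 percentage points of its GC, on the log2 scale, F3 3.23 above that of 2672, and IL1RAP 3.03 above that of 2807. ARRDC3 was 2.63 above its 1829 genes of similar GC and FEM1C 2.18 above its 2148. The margin was narrowest for YOD1, 2.01 above the median of 2.01 in 1210 genes, and for KLHL28, 1.94 above the median of 2.19 in 630 genes. The number of genes of similar GC with a larger change was 3 for WNT16, ARRDC3 and F3, 5 for IL1RAP, 8 for FEM1C, 14 for KLHL28 and 16 for YOD1. That each gene stands high among such genes follows from how it was picked.

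**Figure D2:**
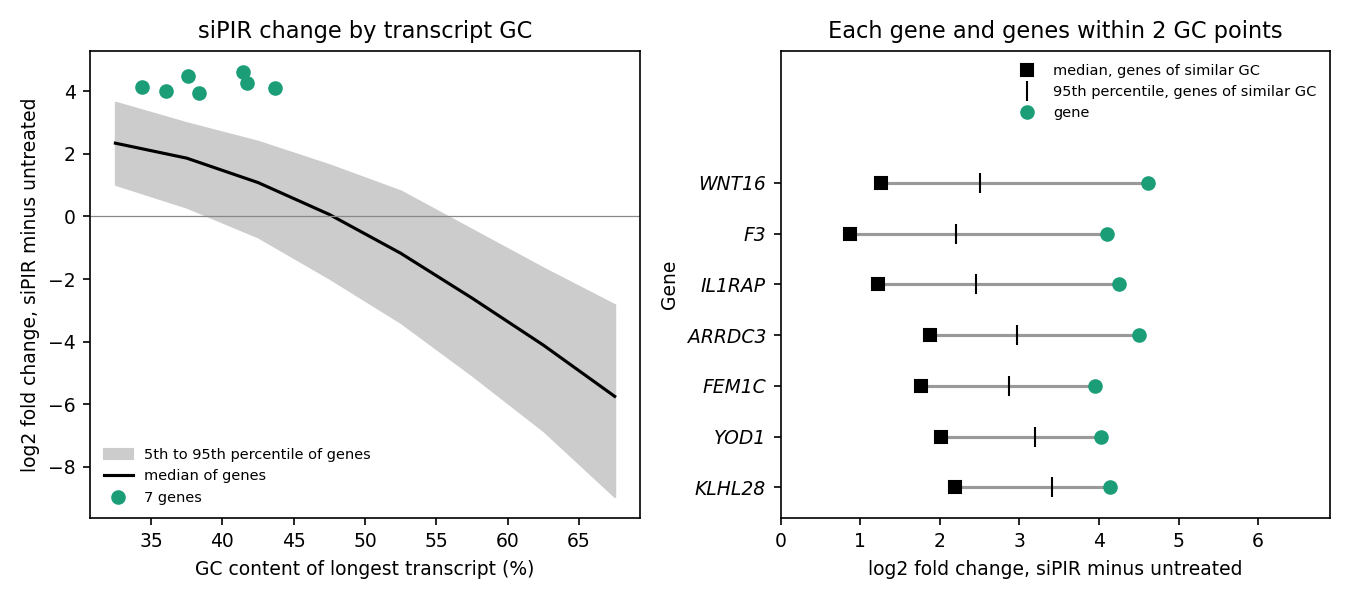
Left, median log2 fold change of siPIR against untreated in bins of transcript GC (percent) over genes tested, with a band from their 5th to 95th percentile and the 7 genes as points; right, the change of each of the 7 genes beside the median and 95th percentile of tested genes within 2 percentage points of its GC. The median falls from 2.34 at 30 to 35% GC to -4.11 at 60 to 65%, and KLHL28 at 4.14 has the smallest distance to its similar genes.

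With a fitted trend of each library on GC and transcript length removed (a GC-length offset), the siPIR log2 fold change was 3.47 for WNT16, 3.40 for F3 and 3.09 for IL1RAP, which lost least. It was 2.74 for ARRDC3, 2.23 for FEM1C, 2.01 for YOD1 and 1.93 for KLHL28. The median of the 7 was 2.74 with the offset and 4.14 without it, beside -0.041 and -0.28 for all genes. Under the offset 32.7% of genes were called higher and 32.4% lower in siPIR cells. Among 9734 protein-coding genes at or over that average level (log2 CPM of 3), WNT16 ranked 18, F3 21, IL1RAP 37, ARRDC3 69, FEM1C 144, YOD1 211 and KLHL28 242 by the corrected change. The offset left part of the trend: the siPIR change still had a Spearman correlation of -0.18 with transcript GC. Its median with the offset was 0.14 at 30 to 35% GC, -0.52 at 60 to 65% and -1.16 at 65 to 70%. The part of GC content in the rise was not tested, and the offset also removes any change linked to GC that is not technical.

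SP2509 against untreated was not used in the choice, though it shares the untreated libraries with it. A low value in those libraries raises both changes, so the SP2509 calls of the 7 genes are not independent of the choice. In SP2509 against untreated 33.5% of all genes were called higher and 35.1% lower (edgeR adjusted p under 0.05). Of the 7 genes 5 were called higher, 1 lower and 1 not called. The higher genes were 48.8% of all calls with TMM, but 36.2% once scaled by the upper quartile and 28.3% once scaled by total counts, as the median of all genes moved from -0.039 to -0.27 and -0.43. IL1RAP rose most, by 2.88 on the log2 scale (SE 0.125, edgeR adjusted p = 2.36e-09), which was 7.38-fold. YOD1 rose 3.60-fold (log2 1.85, SE 0.105, edgeR adjusted p = 1.86e-08), F3 3.48-fold (log2 1.80, SE 0.124, edgeR adjusted p = 9.36e-08) and FEM1C 3.25-fold (log2 1.70, SE 0.103, edgeR adjusted p = 3.12e-08). KLHL28 rose 1.56-fold (log2 0.64, SE 0.147, edgeR adjusted p = 0.00175), and with scaling by total counts alone its change of 0.26 was not called (edgeR adjusted p = 0.0919). WNT16, the most raised in siPIR cells, fell with the compound (log2 -0.58, SE 0.113, edgeR adjusted p = 0.000512). ARRDC3 changed by -0.13 (SE 0.103), which did not pass the test (edgeR adjusted p = 0.294); it was called lower once scaled by the upper quartile (-0.36, edgeR adjusted p = 0.00523) or by total counts (-0.51, edgeR adjusted p = 0.000365). Of tested genes of similar GC, 99.0% lay below IL1RAP in this comparison, 98.1% below YOD1, 96.8% below FEM1C, 96.4% below F3, 76.5% below KLHL28, 41.1% below ARRDC3 and 26.2% below WNT16. The 3 genes just outside the choice had SP2509 values of 0.87 (SLC2A3), 0.77 (P4HA1) and 0.75 (SLCO1B3).

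Set directly against SP2509 cells, siPIR cells were higher for all 7 genes, by 5.20 for WNT16, 4.63 for ARRDC3, 3.49 for KLHL28, 2.30 for F3, 2.25 for FEM1C, 2.18 for YOD1 and 1.38 for IL1RAP on the log2 scale. With the GC-length offset the same differences were 4.05, 2.87, 1.24, 1.59, 0.56, 0.14 and 0.25. These values are given without a test, since the siPIR libraries took part in the choice.

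**Figure D3:**
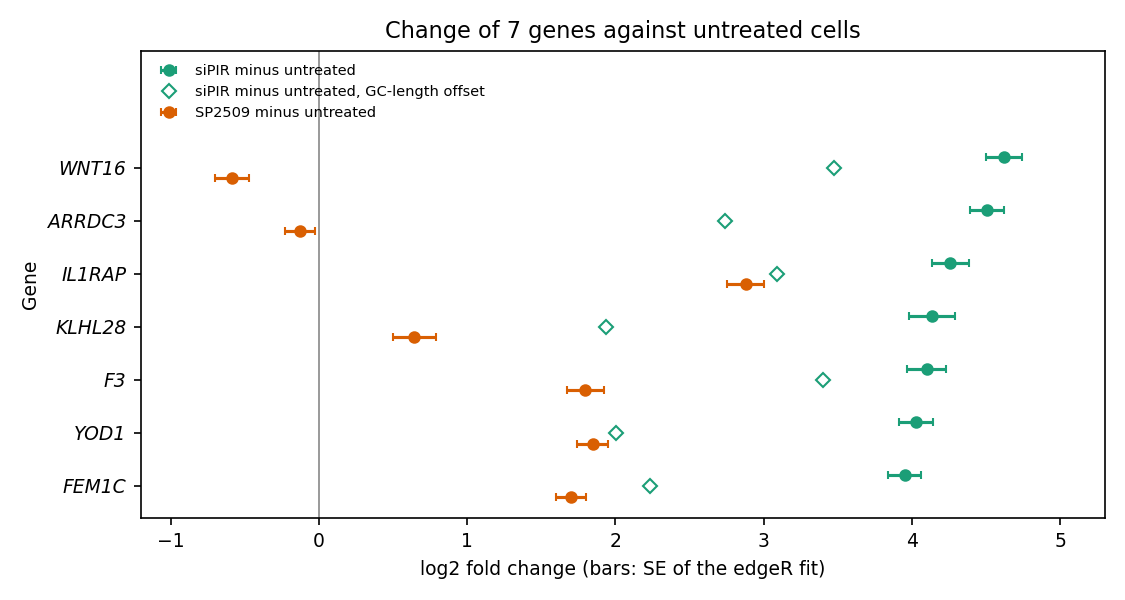
Log2 fold change against untreated cells of the 7 genes in siPIR cells, in siPIR cells with the GC-length offset and in SP2509 cells, with bars of 1 SE where the offset was not used. WNT16 and ARRDC3 have the largest siPIR changes (4.62 and 4.51) and the only SP2509 changes below 0 (-0.58 and -0.13).

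Per kilobase of the longest transcript, ARRDC3 had the highest mean level in untreated cells (16.8 CPM per kb), followed by WNT16 (9.60), F3 (9.14), YOD1 (6.72), FEM1C (6.05), KLHL28 (2.71) and IL1RAP (1.13). WNT16 and F3 overlapped in that order and no other neighbours did. In siPIR cells the order was the same, from 382 CPM per kb for ARRDC3 and 236 for WNT16 to 47.7 for KLHL28 and 21.7 for IL1RAP. In SP2509 cells F3 was highest at 31.8 CPM per kb, before YOD1 (24.2), FEM1C (19.7) and ARRDC3 (15.4), and IL1RAP (8.36) lay above WNT16 (6.40) and KLHL28 (4.24). Neighbours in the siPIR and SP2509 orders did not overlap.

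By likeness of profile, measured as the root mean square difference of centred log2 CPM over the 6 libraries, distances between the 7 genes covered a wide range. The siPIR and untreated libraries that chose the 7 genes enter this measure. Closeness among the 7, and to other genes with large siPIR changes, therefore follows in part from the choice. Shared control of these genes was not tested. F3 and YOD1 differed by 0.0866, YOD1 and FEM1C by 0.0933 and F3 and FEM1C by 0.123. WNT16 and ARRDC3 differed by 0.251, KLHL28 lay 0.496 to 1.03 from the other 6, and the largest distance was 1.72, between WNT16 and IL1RAP. Of 9727 other genes, FAM126B, which takes part in making phosphatidylinositol 4-phosphate at the plasma membrane, was nearest to F3 (0.211), YOD1 (0.209) and FEM1C (0.193). The next were ATG12, an autophagy conjugation protein, for F3 (0.261) and YOD1 (0.219), and RASA2, a RAS GTPase-activating protein, for FEM1C (0.206). KLHL28 was nearest to P4HA1 (0.199) and ERO1A, an oxidoreductase of the endoplasmic reticulum (0.213). IL1RAP was nearest to RIOK3 (0.357) and EMP1 (0.381), ARRDC3 to ANKRD37 (0.427) and BNIP3L (0.458), and WNT16 to PLOD2, a lysyl hydroxylase (0.451), and ANKRD46 (0.542).

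The relatives of each gene were counted from lists that follow its family or pathway. Over all genes, 39.3% rose and 46.9% fell in siPIR cells, 32.7% and 32.4% with the offset, and 33.5% and 35.1% with SP2509. Of 12 tested WNT ligands other than WNT16, 1 rose and 10 fell in siPIR cells (median -2.53, median GC 59.5%), and 5 rose and 2 fell with the offset (median 0.18). With SP2509, 3 rose and 7 fell (median -0.62). WNT3A, a canonical ligand, had 248 and 199 counts in untreated cells and 0 in both siPIR libraries, at least 42.0-fold lower against a floor of 3 counts per library. It has 66.6% GC, and genes at 65 to 70% GC had a median siPIR log2 change of -5.75. With SP2509 WNT3A changed by -1.64 (edgeR adjusted p = 6.22e-06). WNT7B changed from -2.16 to 1.70 with the offset (edgeR adjusted p = 1.16e-06 for the latter) and rose by 1.88 with SP2509 (edgeR adjusted p = 1.53e-07). Of 17 tested frizzled receptors, co-receptors and secretion factors (median GC 49.9%), 6 rose and 8 fell in siPIR cells (6 and 6 with the offset), and 3 rose and 11 fell with SP2509. The receptor FZD3, at 34.9% GC, rose by 2.64 in siPIR cells (edgeR adjusted p = 7.27e-10), by 0.45 with the offset (edgeR adjusted p = 8.19e-05), and fell by 1.19 with SP2509 (edgeR adjusted p = 1.11e-05). FZD2, at 64.9% GC, fell, with log2 changes of -6.69 in siPIR cells and -2.42 with the offset.

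Among the alpha-arrestins, ARRDC4 had a GC content of 43.4% and was the only tested relative of ARRDC3 that rose in siPIR cells. Its level was 15.0 ± 2.27 CPM in untreated, 68.6 ± 11.4 CPM in siPIR and 14.8 ± 0.0082 CPM in SP2509 cells (mean ± SD, n = 2). It rose by 2.19 in siPIR cells (edgeR adjusted p = 4.3e-09) and by 1.40 with the offset (edgeR adjusted p = 6.08e-10), and its change with SP2509, -0.026, was not called (edgeR adjusted p = 0.88), though with total counts it was called lower (-0.41, edgeR adjusted p = 0.011). The GC-rich ARRDC1 fell, with changes of -5.83 in siPIR cells and -2.01 with the offset. ARRDC2 fell by 2.98 in siPIR cells, changed by 0.20 with the offset, which was not called (edgeR adjusted p = 0.235), and rose by 0.88 with SP2509 (edgeR adjusted p = 2.44e-05). TXNIP and ARRDC5 had at most 1 count in any library and were not tested.

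Of 18 tested genes of the interleukin-1 receptor family and its signalling (median GC 42.0%), 8 rose and 7 fell in siPIR cells (7 and 8 with total-count scaling), 4 rose and 4 fell with the offset, and 11 rose and 4 fell with SP2509 (2 fell without untreated replicate 1). The inhibitory receptor SIGIRR, at 67.9% GC, fell, with changes of -6.27 in siPIR cells and -1.38 with the offset. Genes at 65 to 70% GC had medians of -5.75 and -1.16 in these 2 readings. IRAK1, a kinase of the pathway, fell by 3.66 in siPIR cells, changed by 0.21 with the offset (edgeR adjusted p = 0.0998) and rose by 1.02 with SP2509 (edgeR adjusted p = 8.83e-06). Of 11 tested genes around tissue factor (median GC 51.6%), 4 rose and 6 fell in siPIR cells, 7 rose and 2 fell with the offset, and 5 rose and 4 fell with SP2509 (4 and 5 with total counts). TFPI, the inhibitor of tissue factor, had 16.5 ± 1.58 CPM in untreated, 96.2 ± 2.65 CPM in siPIR and 46.1 ± 3.96 CPM in SP2509 cells. TFPI thus rose alongside F3 in siPIR cells (2.54, edgeR adjusted p = 1.92e-10, and 1.30 with the offset, edgeR adjusted p = 2.2e-11) and with SP2509 (1.48, edgeR adjusted p = 1.85e-07). PLAT, the tissue plasminogen activator, fell in all 3 readings, with log2 changes of -3.07 in siPIR cells, -3.38 with the offset and -0.94 with SP2509. F2R, a thrombin receptor, rose by 1.27 in siPIR cells and by 0.71 with the offset, and fell by 1.06 with SP2509.

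Of the 2 other FEM1 genes, FEM1B moved like FEM1C in all 3 readings: it rose by 2.25 in siPIR cells (edgeR adjusted p = 7.12e-10), by 0.80 with the offset (edgeR adjusted p = 3.99e-09) and by 1.24 with SP2509 (edgeR adjusted p = 9.32e-07). FEM1A, at 55.2% GC against 40.4% for FEM1B, fell by 1.79 in siPIR cells, changed by -0.085 with the offset (edgeR adjusted p = 0.419) and rose by 0.65 with SP2509 (edgeR adjusted p = 6.26e-05). Of 15 tested genes of the FEM1 and CUL2 ligase list (median GC 44.1%), 10 rose and 5 fell in siPIR cells, 6 rose and 4 fell with the offset, and 7 rose and 3 fell with SP2509, which became 5 and 7 with total counts. KLHDC10, another C-degron receptor, rose by 1.90, 1.06 and 1.26 in those 3 readings.

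Of 31 tested BTB-Kelch genes, whose median GC was 42.9%, 20 rose and 10 fell in siPIR cells, 14 rose and 7 fell with the offset, and 14 rose and 10 fell with SP2509, which became 9 and 16 with total counts. KEAP1, the adaptor that holds the antioxidant factor NRF2 in check, fell in siPIR cells without and with the offset (-3.95 and -0.72). It has 60.3% GC, and genes at 60 to 65% GC had medians of -4.11 and -0.52 in these readings. With SP2509 KEAP1 rose by 0.66, which was not called with total counts (0.27, edgeR adjusted p = 0.0517). Of 23 tested OTU deubiquitinases and VCP partners (median GC 47.1%), 12 rose and 9 fell in siPIR cells (10 and 11 with total counts), 11 rose and 8 fell with the offset, and 13 rose and 5 fell with SP2509 (8 and 7 with total counts). OTUD4 rose by 2.74 in siPIR cells and by 1.34 with the offset, and ALG13 by 2.49 and 1.91. Under the offset the family medians lay between -0.082 and 0.71, beside -0.041 for all genes.

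**Figure D4:**
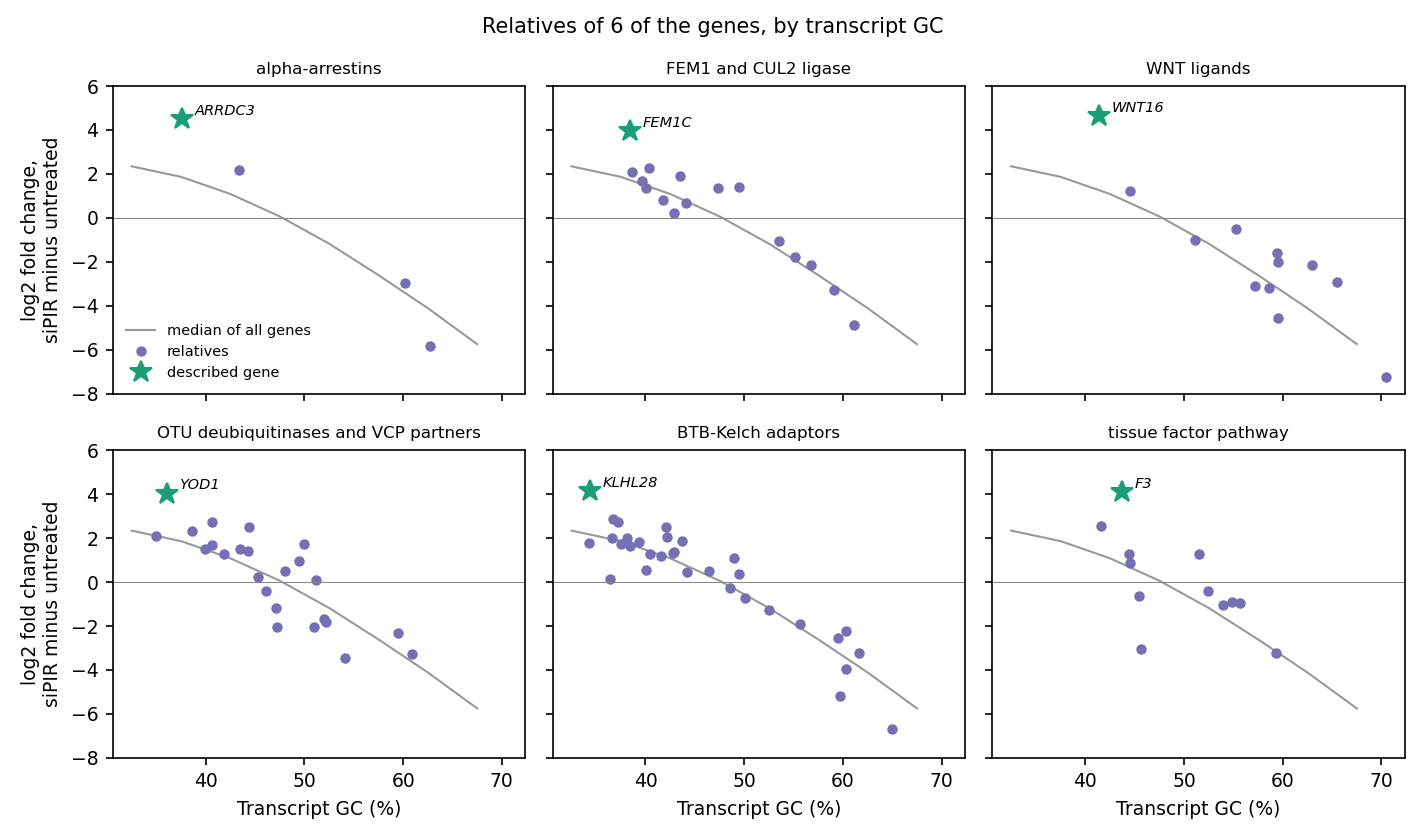
Log2 fold change of siPIR against untreated (without the offset) against transcript GC (percent) for tested relatives of 6 of the 7 genes (IL1RAP is not drawn), by list, leaving out genes with 0 counts in both siPIR libraries; stars mark the 6 genes and the line is the median of all genes by GC. Relatives under about 45% GC lie mostly above 0 and those over 55% mostly below 0, as in ARRDC4 (2.19 at 43.4% GC) and ARRDC1 (-5.83 at 62.8% GC).

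Within 100 kb of the 7 genes, 15 other genes were tested, of which 13 rose and 1 fell in siPIR cells, 7 rose and 1 fell with the offset, and 6 rose and 4 fell with SP2509. Over all genes 39.3% rose and 46.9% fell in siPIR cells, and 32.7% and 32.4% with the offset. The neighbours are themselves AT-rich, and 13 of the 15 lie under 45% GC, where the bins of tested genes had median siPIR changes of 1.08 to 2.34. FAM3C, which lies 7747 bp from WNT16 and is read in the other direction, gave 9430 and 7965 counts in untreated, 57145 and 49306 in siPIR and 11732 and 11795 in SP2509 cells. Its changes were 3.44 in siPIR cells, 1.69 with the offset and 0.84 with SP2509. LUCAT1, a long non-coding RNA 54177 bp from ARRDC3, changed by 3.82, 3.32 and 1.17. Near F3, ABCD3 rose by 1.89 in siPIR cells, and its change of 0.12 with the offset was not called (edgeR adjusted p = 0.148). The bodies of TOGARAM1 and PFKFB2 overlap KLHL28 and YOD1 on the opposite strand. How strand was handled in the counting is not given in the labels, so reads of such pairs cannot be told apart. In unscaled counts TOGARAM1 had 114 and 92 in untreated and 116 and 98 in siPIR cells. PFKFB2 had 756 and 649 against 765 and 832. KLHL28 went from 668 and 538 to 6948 and 5030 counts and YOD1 from 1472 and 1387 to 13934 and 12486. With TMM both overlapping genes were called higher in siPIR cells. TOGARAM1 rose by 0.88 (edgeR adjusted p = 0.000296) and PFKFB2 by 1.01 (edgeR adjusted p = 7.38e-07). With the offset their changes of -0.30 and 0.15 were not called (edgeR adjusted p = 0.126 and 0.152). Whether reads of these pairs were mixed was not tested.

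The GC content of the 7 transcripts was unevenly spread along them. The 3' UTR was the poorest in GC in each, from 30.5% in WNT16 and 31.0% in KLHL28 to 36.7% in F3 and 38.1% in IL1RAP. The coding part ranged from 41.9% in KLHL28 to 53.7% in WNT16, and the 5' UTR from 41.6% in ARRDC3 to 74.4% in F3. The 3' UTR was 1238 nt long in F3, 1762 nt in WNT16, 2679 nt in ARRDC3, 3146 nt in IL1RAP, 3403 nt in FEM1C, 4712 nt in KLHL28 and 5174 nt in YOD1, beside a median of 1277 nt in 13176 tested genes. The AU-rich nonamer TTATTTATT, a known instability element, occurred in none of the 7 3' UTRs and in 8.98% of those genes. Among genes of similar GC and 3' UTR length its share ran from 8.32% for F3 to 26.7% for YOD1. Its absence from only 7 genes is therefore not read as a trait of them. The shorter ATTTA occurred 21 times in KLHL28, 16 times in YOD1 and 14 times in FEM1C, beside medians of 18, 18 and 11 in genes of similar GC and 3' UTR length. In WNT16 it occurred 8 times (median 5), in ARRDC3 7 times (median 10), in F3 6 times (median 3) and in IL1RAP 4 times (median 8), so the 7 lay on both sides of their medians. The Pumilio motif TGTANATA was found in WNT16, KLHL28, F3 and YOD1, and in 28.6% of all. Among genes of similar 3' UTR length and GC its share was 39.2%, 78.1%, 30.3% and 74.4% for those 4, and 52.6% to 62.0% for the 3 genes without it.

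**Figure D5:**
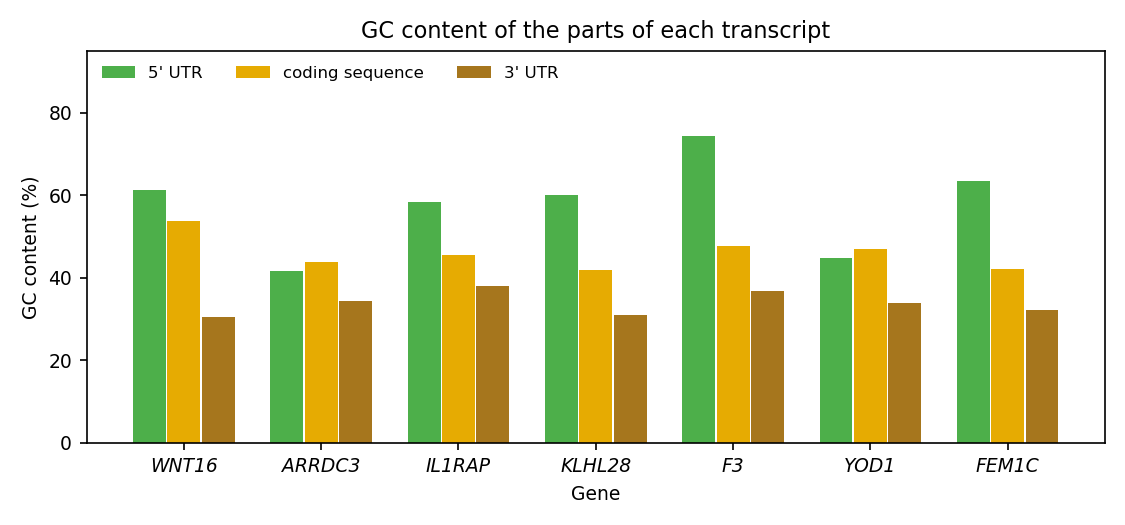
GC content (percent) of the 5' UTR, coding part and 3' UTR of the 7 genes. The 3' UTR lies lowest in all 7, between 30.5% (WNT16) and 38.1% (IL1RAP), while the 5' UTR reaches 74.4% in F3.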

How the data were processed

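The authors deposited 1 table of estimated counts per Ensembl gene, in which many values are not whole. Trimmomatic 0.32, HISAT2, featureCounts (Subread 1.6.2), edgeR 3.26.4 and GRCh38 are named per the submitters' processing notes, and the library kit was directional per the labels' protocols. Not given in the sources used here are the strand setting, the annotation release and how fractions of a count arose. Reads of near-identical or overlapping genes may therefore have been split. Groups came from the sample titles.

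Counts were rounded, filtered with filterByExpr (16503 genes) and scaled by TMM. All 6 libraries were fitted as 3 groups with edgeR 4.0.16 (robust quasi-likelihood test, R 4.3.3, 3 residual degrees of freedom), and p-values were adjusted over every gene tested (Benjamini-Hochberg, threshold 0.05). The script was tested on simulated data. CPM values are TMM-scaled unless stated, and precision is limited by 2 libraries per group. A fold against counts of 0 was set against a floor of 3 counts per library, which covers counting error only.

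The longest transcript of each gene in GENCODE 29 gave its GC content and length; 158 tested genes had no value. The GC-length offset subtracts a fitted trend of each library on GC and log2 length (natural splines, 5 degrees of freedom each). It did not remove all of the trend on GC. Promoters are from RefSeq (GRCh38.p14). ELOB, ELOC and UFD1 were matched by identifier.

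The 7 genes and the lists of relatives were chosen with earlier results of these data known. Besides the 7 and PIR, the rule names up to 4 tested relatives per list with the smallest adjusted p in siPIR against untreated and every FEM1 and ARRDC relative, the 2 nearest genes by profile, the 3 genes just outside the choice and tested neighbours within 100 kb. Not every gene it names is printed. Alternatives were 3 other scalings, DESeq2 1.42.0, limma-voom (limma 3.58.1), 2 other count filters, a fit of only the 4 libraries compared, blocks for the replicate number (replicate block) and for an unexplained number in the sample descriptions, the GC-length offset with and without the replicate block, and removal of each library in turn.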

Additional observations from a re-analysis of the deposited data

How the results depend on the processing

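The median siPIR log2 fold change of the 7 genes, 4.14, was 4.28 with relative log expression (RLE) scaling, 3.96 with upper-quartile scaling, 3.51 with total counts, 4.28 with DESeq2, 3.97 with a block for the description number, 2.74 with the GC-length offset and 2.74 with the offset and the replicate block; the cause was not tested. With each library left out in turn it ranged from 3.96 to 4.33. The replicate block alone gave 4.13. Titles number the replicates in each group, but the deviations of same-numbered libraries correlated at only -0.038, -0.024 and 0.081. With 2 libraries per group this cannot show whether they share more than a number. The number in the descriptions pairs libraries otherwise: 11 stands for untreated 1, siPIR 2 and SP2509 1, and 12 for untreated 2 and SP2509 2. The percentage of tested genes of similar GC that lay below each gene was taken within 2 points (main), 1 point, 5 points and by 3' UTR GC. In that order it was 99.8924, 99.9297, 99.9194 and 99.9159 for WNT16, 99.836, 99.7895, 99.6763 and 100 for ARRDC3, 99.8219, 99.7902, 99.8247 and 100 for IL1RAP, 97.7778, 98.6799, 99.0389 and 99.6348 for KLHL28, 99.8877, 99.8525, 99.8309 and 99.9018 for F3, 98.6777, 98.4014, 99.1669 and 99.7579 for YOD1, and 99.6276, 99.633, 99.3803 and 99.5421 for FEM1C. Each alternative differed from the main value by more than the SD of this percentage between the 2 siPIR libraries. KLHL28 moved most, from 97.7778 up to 99.6348. Genes called numbered 11316 for SP2509 (9340 to 12578 over the alternatives) and 14212 for siPIR (10639 to 15338). Of the 7 genes 6 were called with SP2509 under every alternative but upper-quartile scaling, which called 7; with total counts ARRDC3 was gained and KLHL28 lost. Over these alternatives the SP2509 change was -0.97 to -0.50 for WNT16, 2.49 to 3.02 for IL1RAP, 1.41 to 1.85 for F3, 1.46 to 1.90 for YOD1 and 1.31 to 1.79 for FEM1C. Signs turned for these values. In siPIR cells the offset, without and with the replicate block, gave 0.203 and 0.205 for ARRDC2, 0.215 and 0.209 for IRAK1, 1.699 and 1.699 for WNT7B and -0.303 and -0.302 for TOGARAM1. With SP2509, total counts gave -0.111 for ARRDC1, -0.202 for PFKFB2, -0.168 for SIGIRR, -0.069 for UBXN1 and -0.188 for VCPIP1, and upper-quartile scaling gave -0.0476 for PFKFB2, -0.0125 for SIGIRR and -0.0337 for VCPIP1. On leaving out a library, PIR with SP2509 ranged from -0.277 to 0.0529 (without SP2509 replicate 2), and ARRDC4 from -0.175 to 0.150 (without untreated replicate 1). ELOB (TCEB2) with SP2509, -0.011 with TMM, was -0.246 with upper-quartile scaling, -0.400 with total counts (called lower, edgeR adjusted p = 0.0108), 0.0108 with RLE, 0.0060 without a filter, 0.0106 with DESeq2, 0.141 with the offset, 0.144 with the offset and replicate block, and -0.0867 to 0.0749 on leaving out a library.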
